A study of Rattus norvegicus with 4 samples.

Results

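The 10 genes described here are cyclins, cyclin-dependent kinase (CDK) inhibitors and regulators of replication and mitosis: Ccnd1, Ccnd2, Ccnd3, Ccne1, Ccnb1, Cdc20, Ccng1, Cdkn1a, Cdkn1b and Pcna. All probe sets whose only platform symbol is one of these names were taken, which gave 22 probe sets among 7006 with 1 gene symbol, and 10 genes among 4736. Left ventricular RNA of rats was hybridised to 4 Affymetrix arrays, 1 for each group and with no replicate. One group was Sprague Dawley (SD control), another the double transgenic rat that carries human renin and human angiotensinogen (dTGR), and another the dTGR given losartan, which blocks the angiotensin II type 1 receptor. The last was labelled terminal heart failure, with no genotype named. All 4 samples, the control included, carry one text on the transgenic rat, which puts its death at 7 weeks, with raised blood pressure, an enlarged heart and protein in the urine. The promoters of the transgenes, the losartan dose, the ages, the sex, the time of sampling and the number of rats per array are not stated there.

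Cyclins are the regulatory subunits of CDKs. D-type cyclins with Cdk4 or Cdk6 open the G1 phase by phosphorylating the retinoblastoma protein, cyclin E1 with Cdk2 drives entry into S phase, and cyclin B1 with Cdk1 drives mitosis, which Cdc20 ends by activating the anaphase-promoting complex. Cdkn1a (p21) and Cdkn1b (p27) inhibit cyclin-CDK complexes, and Pcna is the sliding clamp of DNA polymerase. Cdkn1a and Ccng1 are textbook targets of the transcription factor p53. Cardiomyocytes of the rat largely leave the cell cycle after birth, while fibroblasts, endothelial cells and leukocytes of the ventricle can divide.

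Of the 10 genes, 8 had a promoter in the RefSeq table of build GRCr8; Ccnd1 and Ccnd2 did not match. Each window below is the 250 bases before the annotated start, 5′ to 3′. Capitals mark matches on either strand to 6 motifs: the CCAAT box (CCAAT), the GC box (GGGCGG), the CHR element of mitotic genes (TTTGAA), an E2F-like site (TTTNGCGC), the TATA box (TATAAA) and the p53 consensus decamer, searched by its degenerate consensus and added after the Cdkn1a sequence had been seen. The mitotic genes Ccnb1 and Cdc20 are shown for their paired CCAAT boxes, and Cdkn1a and Ccng1 for their p53 decamers.
Ccnb1 (chr2:33655226-33655475, minus strand): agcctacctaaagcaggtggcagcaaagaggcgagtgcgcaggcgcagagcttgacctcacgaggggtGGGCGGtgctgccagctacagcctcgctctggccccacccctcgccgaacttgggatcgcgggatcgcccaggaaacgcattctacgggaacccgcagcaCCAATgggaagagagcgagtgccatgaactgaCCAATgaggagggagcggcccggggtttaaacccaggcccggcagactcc
Cdc20 (chr5:137255800-137256049, minus strand): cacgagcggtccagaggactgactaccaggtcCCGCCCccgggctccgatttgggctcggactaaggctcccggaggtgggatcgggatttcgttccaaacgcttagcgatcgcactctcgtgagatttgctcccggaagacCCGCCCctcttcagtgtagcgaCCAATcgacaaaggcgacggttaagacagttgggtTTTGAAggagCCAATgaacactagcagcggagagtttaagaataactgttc
Cdkn1a (chr20:7150682-7150931, plus strand): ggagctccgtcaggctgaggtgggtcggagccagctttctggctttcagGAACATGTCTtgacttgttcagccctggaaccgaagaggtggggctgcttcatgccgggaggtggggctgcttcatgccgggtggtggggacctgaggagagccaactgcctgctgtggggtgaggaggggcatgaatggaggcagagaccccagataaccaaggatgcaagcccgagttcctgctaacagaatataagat
Ccng1 (chr10:25684877-25685126, minus strand): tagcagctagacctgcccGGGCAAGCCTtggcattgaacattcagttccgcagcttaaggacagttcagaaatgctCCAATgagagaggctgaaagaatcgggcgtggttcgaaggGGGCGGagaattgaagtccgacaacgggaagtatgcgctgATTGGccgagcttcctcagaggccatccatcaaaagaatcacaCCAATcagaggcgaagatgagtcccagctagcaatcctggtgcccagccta

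Ccnb1 held CCAAT boxes beginning 82 and 50 bases before the start, and Cdc20 held them at 86 and 41 bases with a CHR element at 51 bases. More than 1 CCAAT box was not particular to these genes. Ccng1 held them at 174, 94 and 51 bases, and Cdkn1b at 148 and 68 bases. The p53 decamer, searched as a single copy, began 201 bases before the annotated start in Cdkn1a and 232 bases in Ccng1. No other member window held it. The CCAAT box stood in 6 of the 8 member promoters and in 34.02% of 33469 promoters of the same length. The GC box stood in 7 and in 30.5%, the CHR element in 1 and in 16.2%, and the p53 decamer in 2 and in 6.64%. That decamer was added after the Cdkn1a sequence had been seen, so nothing is read from its share. None of the 8 windows held the E2F-like site or the TATA box, which stood in 1.04% and 12.9% of all promoters. These matches describe letters in 1 window of each gene, before 1 annotated start, and other starts of the genes were not searched. The arrays measured transcripts, not promoter activity or binding.

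Intensities below are on a linear scale, with each array brought to the same trimmed mean. The floor, 26.0, is the 40th percentile of all values; anything below it is a bound and has no order. A value counted as higher or lower when it differed at least 2-fold and at least 1 of both arrays was above the floor. No test was possible with 1 array per group. The only measure of error was the spread between probe sets of one gene, with an SD of 0.51 to 0.60 on the log2 scale in the 6 comparisons; it holds no variation between rats. In RNA of whole tissue, fewer cells of a type and less RNA per cell cannot be told apart. The arrays differed in handling. By the instrument records, the dTGR array had another fluidics protocol, listed with 0 cycles in both first washes and 0 seconds of first stain. The records of the other arrays listed 10 and 4 cycles and 600 seconds. The losartan and terminal arrays came from another chip lot than the dTGR and control arrays, and the terminal array was run on another day. The 3′ to 5′ signal ratio of Gapdh was 1.34 in SD control, 1.73 in dTGR, 2.17 after losartan and 1.28 in terminal heart failure. All 13 probe sets of 8 cardiomyocyte markers were above the floor on all 4 arrays.

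Of the 22 probe sets, 13 were above the floor on all 4 arrays, 6 on some of them, and 3 on none. The 3 without a measured level were the only probe set of Cdkn1b (D83792_at, highest value 18.1), 1 of the probe sets of Ccnb1 (rc_AA998164_s_at, highest 20.0) and 1 of Ccnd3 (U49935mRNA_r_at, highest 23.1). No level or difference can be given for Cdkn1b. Of the 13 measured throughout, 10 spanned at least 2-fold from lowest to highest array, against a background of 36.4% of 3462 probe sets. The members had been proposed with results of these arrays in view, so nothing is read from that share. The terminal array was the lowest of the 4 for 6 of the 13, and for 35.9% of all such probe sets.

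**Figure D1:**
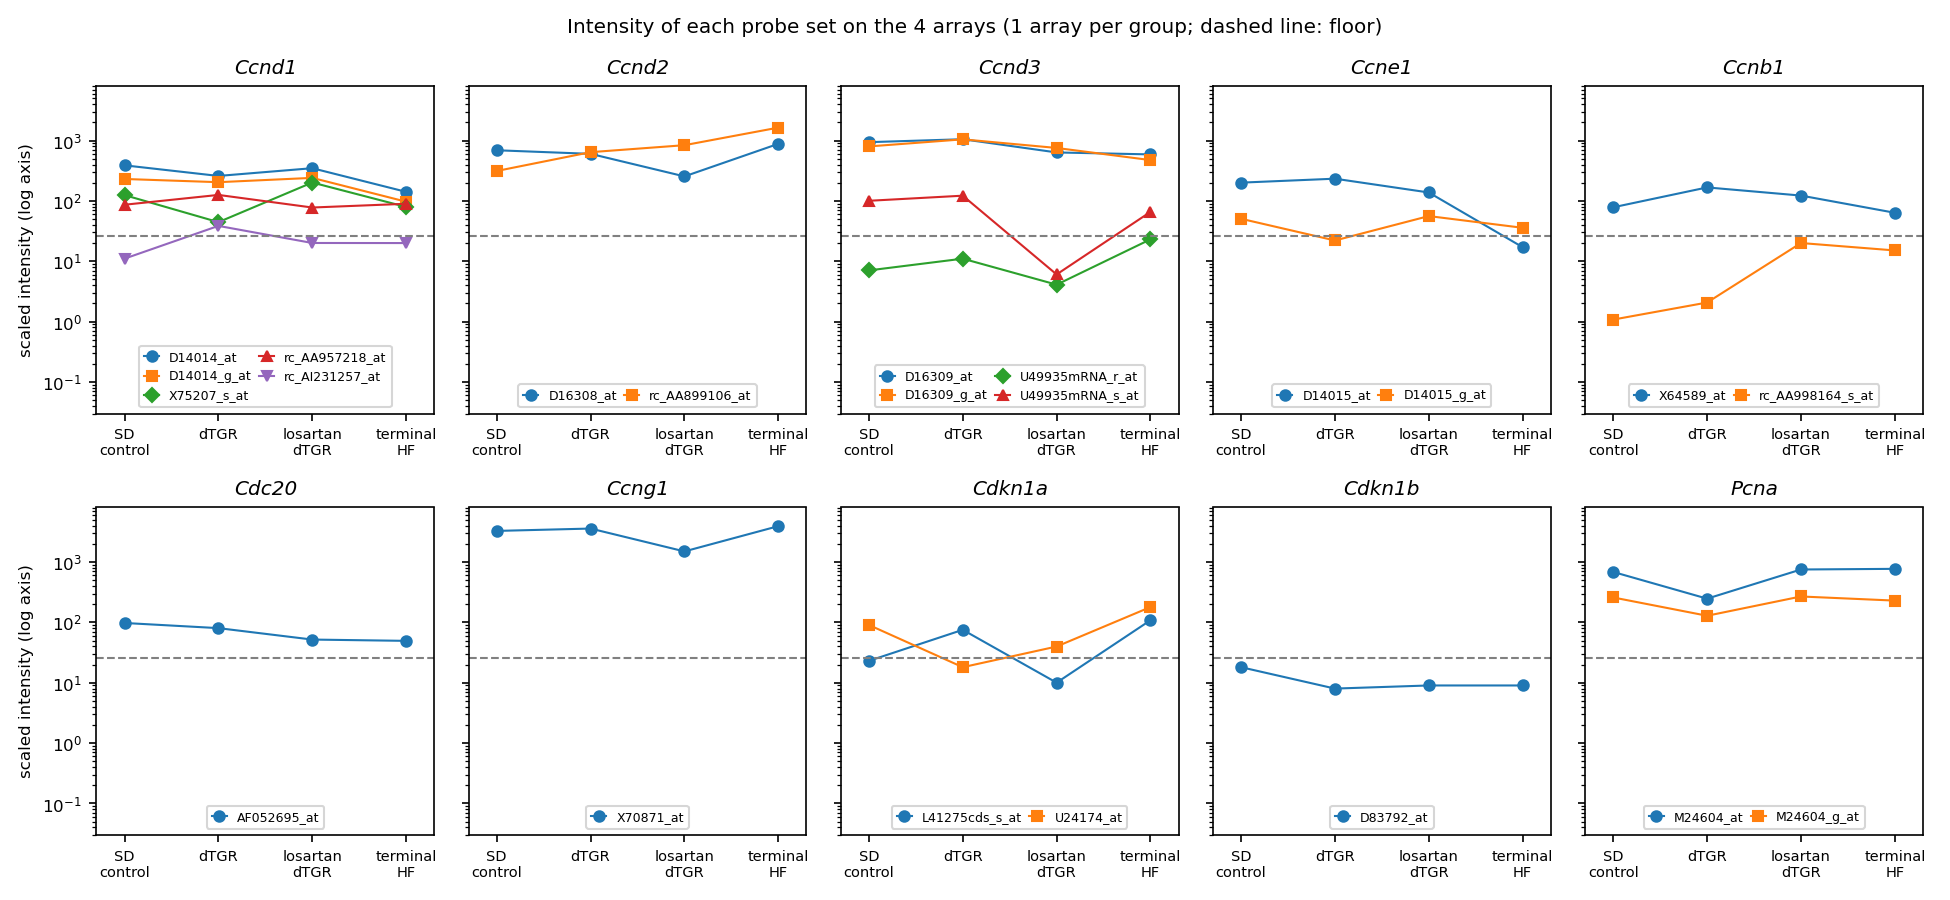
Scaled intensity (log axis) of every probe set of the 10 genes on the 4 arrays; each point is 1 array, lines join the points of a probe set and do not stand for time, and the dashed line is the floor of 26.0. Both Pcna probe sets are lowest in dTGR, Ccng1 is lowest after losartan, both Cdkn1a probe sets are highest in terminal heart failure, and the probe sets of Ccnd1 and of Ccnd2 do not run in parallel.

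Ccnd1, the cyclin D1 that links growth signals to the cell cycle, was lowest in terminal heart failure on the brightest of its probe sets. On D14014_at it had an intensity of 388 in SD control, 259 in dTGR, 348 after losartan and 141 in terminal heart failure. The terminal value was 2.75-fold below SD control and 2.46-fold below losartan-treated dTGR, and 1.83-fold below dTGR. The companion probe set D14014_g_at, made from the same sequence record and so not independent, read 231, 204, 241 and 96.9 in the same order. The terminal array stood apart on both, and the other 3 lay within 1.50-fold of each other.

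The other probe sets of Ccnd1 gave another order. X75207_s_at read 125 in SD control, 44.4 in dTGR, 201 after losartan and 79.4 in terminal heart failure, so that dTGR was the lowest, 2.81-fold below SD control and 4.54-fold below the losartan array. At a floor set to the 60th percentile, the first of these was -0.91 on the log2 scale, short of 2-fold. The expressed sequence tag (EST) probe set rc_AA957218_at read 86.3, 125, 77.6 and 89.5, a span of 1.62-fold with dTGR highest. The fifth, rc_AI231257_at, was above the floor in dTGR alone (38.5). Terminal heart failure was lower than losartan-treated dTGR on 3 of 4 measured probe sets, with log2 differences of -1.30, -1.31 and -1.34 against 0.21 on rc_AA957218_at. The dTGR array was 1.49 below SD control (log2) on 1 probe set and 0.54 above it on another, so the direction for Ccnd1 in dTGR was not settled.

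Ccnd2, cyclin D2, was highest in terminal heart failure on both of its probe sets. On rc_AA899106_at it read 313 in SD control, 641 in dTGR, 837 after losartan and 1635 in terminal heart failure. The control was the lowest, 5.23-fold below terminal heart failure, 2.67-fold below losartan-treated dTGR and 2.05-fold below dTGR, the last of which was 0.79 on the log2 scale and so short of 2-fold after scaling to the same median. On D16308_at it read 689, 601, 254 and 881, and here the losartan array was the lowest, 2.71-fold below SD control, 2.36-fold below dTGR and 3.46-fold below terminal heart failure. Both probe sets thus put terminal heart failure above every other array, by 1.28-fold to 5.23-fold, the smallest of which lay within the spread between probe sets. They gave opposite calls for losartan-treated dTGR against SD control, with log2 differences of 1.42 and -1.44. Among 772 genes with 2 or more probe sets above the floor on both of these arrays, 3 had opposite calls, Ccnd2 among them.

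Ccnd3, cyclin D3, was lower in terminal heart failure than in dTGR and SD control on each of its 3 measured probe sets. D16309_at read 939 in SD control, 1050.4 in dTGR, 634 after losartan and 589 in terminal heart failure, and its companion D16309_g_at, from the same record, read 798, 1046, 753 and 474. The dTGR array was the highest and the terminal array the lowest on both. Against dTGR the terminal value was 1.78-fold and 2.21-fold lower, and against SD control 1.59-fold and 1.68-fold lower, short of 2-fold. After scaling to the same median the value of 2.21-fold was -0.85 on the log2 scale, also short of it. U49935mRNA_s_at read 100.3, 122 and 65.7 in SD control, dTGR and terminal heart failure and lay below the floor after losartan, at least 4.69-fold below dTGR. On the companion pair from the D16309 record the losartan array was only 1.66-fold and 1.39-fold below dTGR, so the large losartan difference stood on 1 dim probe set, whose bound was -0.88 with the floor at the 60th percentile.

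Ccne1, cyclin E1, was below the floor in terminal heart failure on D14015_at and well above it elsewhere. The intensities were 201 in SD control, 233 in dTGR and 138 after losartan, and the terminal array was at least 7.71-fold, 8.96-fold and 5.30-fold lower. The other 3 arrays lay within 1.69-fold of each other. The companion probe set D14015_g_at was dim, with 50.5 in SD control, 56.0 after losartan and 35.8 in terminal heart failure, and below the floor in dTGR. There the terminal array was 1.41-fold below SD control, less than the SD between probe sets of one gene. Against dTGR the terminal array was at least 1.38-fold higher on this probe set, the opposite direction to D14015_at. The low terminal value of Ccne1 was therefore large on 1 probe set, and its direction against dTGR was not settled.

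Ccnb1, cyclin B1, was highest in dTGR on its measured probe set X64589_at. It read 78.3 in SD control, 167 in dTGR, 122 after losartan and 63.5 in terminal heart failure. The dTGR value was 2.13-fold above SD control and 2.63-fold above terminal heart failure, and the losartan value lay between. The first was 0.85 on the log2 scale after scaling to the same median, short of 2-fold. The difference between SD control and terminal heart failure, 1.23-fold, was smaller than the spread between probe sets. Cdc20, the anaphase activator, read 97.7 in SD control, 80.3 in dTGR, 51.9 after losartan and 49.4 in terminal heart failure on AF052695_at. SD control was the highest, 1.98-fold above terminal heart failure and 1.88-fold above losartan-treated dTGR, and no pair reached 2-fold. Both genes of the mitotic pair were lowest in terminal heart failure, and the rest of their order differed. Ccnb1 was higher in dTGR than in SD control, while Cdc20 was 1.22-fold lower, less than the spread between probe sets.

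Ccng1, cyclin G1, an unusual cyclin that p53 induces, stood on X70871_at at 3274 in SD control, 3583 in dTGR, 1498 after losartan and 3928 in terminal heart failure. The losartan array was the lowest, 2.19-fold below SD control, 2.39-fold below dTGR and 2.62-fold below terminal heart failure. The other 3 arrays were within 1.20-fold of each other, less than the spread between probe sets. The losartan array also had the highest 3′ to 5′ ratio of actin, 2.26 against 1.46 to 2.07 on the others, and whether this moved the Ccng1 value was not tested.

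Cdkn1a, the CDK inhibitor p21, was highest in terminal heart failure on both probe sets. On U24174_at it read 90.5 in SD control, 39.8 after losartan and 179 in terminal heart failure, and was below the floor in dTGR. The terminal value was 1.98-fold above SD control (log2 0.99, and 1.04 to 1.14 with median scaling, quantile normalization or cyclic loess, which passes 2-fold), 4.51-fold above losartan-treated dTGR and at least 6.90-fold above dTGR. On L41275cds_s_at it was above the floor in dTGR (75.3) and terminal heart failure (109) and below it on the other arrays, at least 4.17-fold below the terminal value. Terminal heart failure and dTGR differed by 1.44-fold there. Both probe sets put terminal heart failure at least 4.17-fold above losartan-treated dTGR. At a floor set to the 60th percentile, the bound of L41275cds_s_at in that comparison was 0.71 on the log2 scale, short of 2-fold, and U24174_at still passed it with 1.44.

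For dTGR against SD control, however, the Cdkn1a probe sets had opposite calls. L41275cds_s_at was at least 2.90-fold higher in dTGR and U24174_at at least 3.48-fold lower. Of 1044 genes with 2 or more probe sets tested in that comparison, 13 had opposite calls. At that higher floor, the 60th percentile, neither probe set was called, with bounds of 0.19 and -0.45. The direction for Cdkn1a in dTGR was not settled by these values, nor was its response to losartan against dTGR, where the first was at least 2.90-fold lower and the second at least 1.53-fold higher.

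Pcna, the replication clamp, was lowest in dTGR on both probe sets, which share a sequence record. M24604_at read 684 in SD control, 247 in dTGR, 752 after losartan and 771 in terminal heart failure, and M24604_g_at read 259, 129, 269 and 229. The dTGR array stood apart, while the other 3 lay within 1.13-fold and 1.17-fold of each other. dTGR was 2.77-fold and 2.01-fold below SD control, 3.04-fold and 2.09-fold below losartan-treated dTGR, and 3.12-fold and 1.78-fold below terminal heart failure. The dTGR array was also the only one with its own fluidics protocol, and dTGR and that protocol cannot be told apart. After quantile normalization the difference of M24604_at from SD control was -1.38 on the log2 scale, and after cyclic loess -1.33; for M24604_g_at they were -0.96 and -0.86, short of 2-fold.

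**Figure D2:**
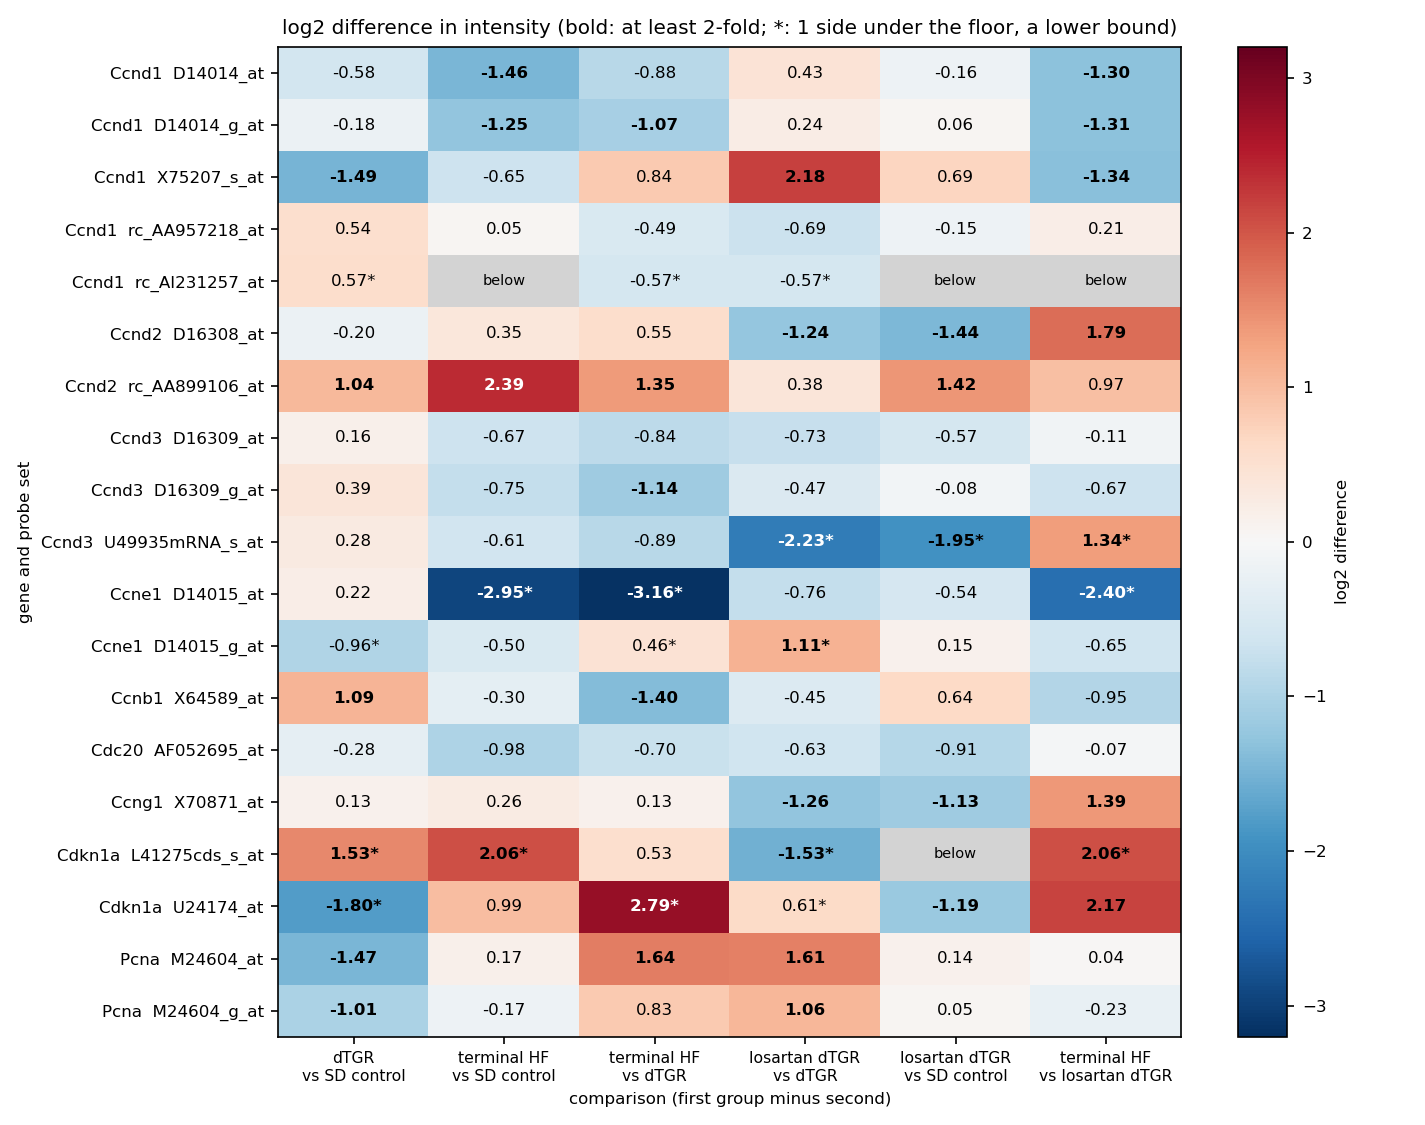
Log2 difference of intensity for the 19 probe sets above the floor on at least 1 array, in 6 comparisons, first group minus second; bold values are at least 2-fold, an asterisk marks a lower bound, and grey cells were below the floor on both arrays. The terminal columns show Ccnd2 and Cdkn1a higher, with Ccne1 D14015_at at -2.95, -3.16 and -2.40.

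Counted over probe sets, members differed in both directions in each comparison. The comparisons share arrays and are not independent of each other. In dTGR against SD control, 3 of 19 member probe sets were higher and 4 lower, where the background over all probe sets was 7.98% higher and 6.14% lower. In terminal heart failure against SD control, 2 of 18 were higher and 3 lower, against 7.38% and 8.53%. In terminal heart failure against dTGR, 3 of 19 were higher and 4 lower, against 8.29% and 11.3%. Losartan-treated dTGR had 4 of 19 higher and 4 lower than dTGR, against 5.79% and 10.4%. It had 1 of 17 higher and 4 lower than SD control, against 2.76% and 6.11%. In terminal heart failure against losartan-treated dTGR, 5 of 18 were higher and 4 lower, against 8.95% and 6.79%. Each gene can add several probe sets, and the genes were proposed with these arrays in view, so the counts describe the members and show nothing about a class of genes.

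**Figure D3:**
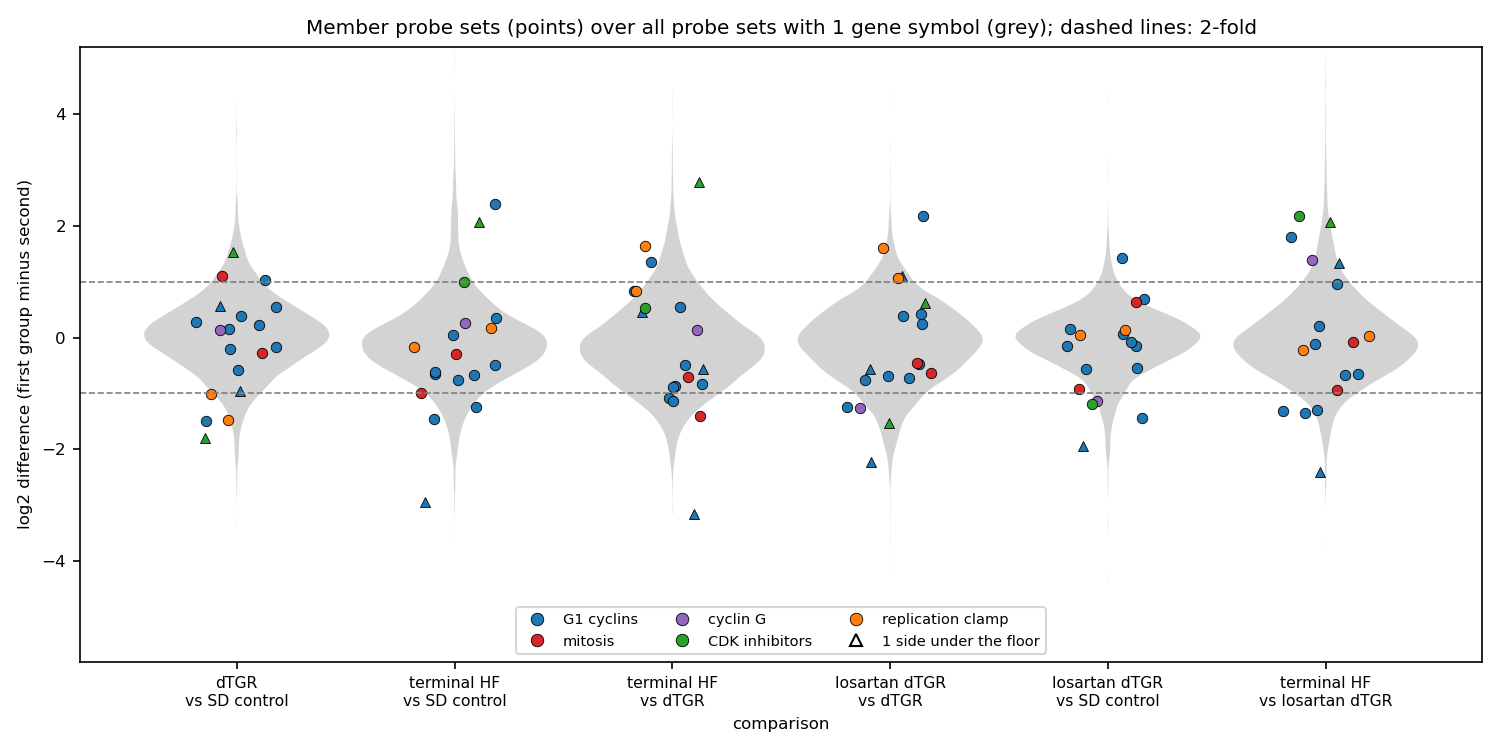
Log2 difference (vertical axis) of the member probe sets, coloured by role, over the distribution of all probe sets with 1 gene symbol (grey) in each of 6 comparisons; triangles are lower bounds and dashed lines mark 2-fold. Members lie on both sides of 0 in every comparison, with the 2 CDK inhibitor points above 2 in terminal heart failure against losartan-treated dTGR.

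The median log2 difference of the member probe sets was 0.13 in dTGR against SD control, -0.40 in terminal heart failure against SD control and -0.49 in terminal heart failure against dTGR, beside 0.05, -0.11 and -0.16 over all probe sets. The sign of the first turned with the normalization, to -0.11 with scaling to the same median and -0.04 with cyclic loess, and with quantile normalization it lay just under 0. The sign of the last turned with the floor, to 0.13 at the 25th percentile and 0.15 with none. It was -0.47 for losartan-treated dTGR against dTGR, -0.15 against SD control and -0.09 for terminal heart failure against losartan-treated dTGR, beside -0.08, -0.02 and -0.07. The scaling mattered for comparisons with dTGR. Scaling to the same median moved the median of all probe sets in dTGR against SD control from 0.05 to -0.18 and turned 400 higher and 308 lower calls into 237 and 530. It turned 418 and 568 into 656 and 298 in terminal heart failure against dTGR, and 293 and 528 into 458 and 335 in losartan-treated dTGR against dTGR. Cyclic loess turned 346 and 400 into 426 and 304 in terminal heart failure against SD control, and 129 and 286 into 166 and 236 in losartan-treated dTGR against SD control.

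Other genes of the cell cycle were taken from lists of replication, mitosis, CDKs, CDK inhibitors, Rb and E2F, further cyclins and p53 or growth arrest. Of 25 probe sets of 15 replication genes, 19 were tested in terminal heart failure against SD control, with 0 higher and 3 lower (median -0.26). Pola2, a subunit of DNA polymerase alpha, was 2.85-fold lower (108 against 309). Top2a, the topoisomerase of dividing cells, was 2.29-fold lower on rc_AA899854_at (55.2 against 127). Its probe set Z19552cds_at read 31.2 against 43.6, short of 2-fold. Of 9 tested probe sets of the mitosis list, 0 were higher and 1 was lower. This was Plk1, a kinase of mitotic entry, at 64.4 against 176, 2.73-fold lower. Of 5 tested probe sets of CDKs and their activators, 0 were higher and 2 lower, both under the floor in terminal heart failure. Cdk4, the partner of D cyclins, had 242 against 430, 1.78-fold lower and so short of the threshold. The background shares were those given above for this comparison.

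In dTGR against SD control, replication had 1 of 19 probe sets higher and 1 lower, and mitosis 1 of 11 higher and 0 lower. CDKs had 0 of 6 in either direction. The background was 7.98% higher and 6.14% lower. Foxm1, a transcription factor of mitotic genes, was 3.70-fold higher in dTGR (172 against 46.6), and Rfc4, part of the complex that loads Pcna, was 3.05-fold higher on a probe set close to the floor in SD control (82.6 against 27.1). In terminal heart failure against dTGR, the mitosis list had 0 of 11 probe sets higher and 3 lower. Foxm1 was 2.93-fold and Plk1 2.25-fold lower. Cdc34, a ubiquitin-conjugating enzyme that acts at the passage from G1 to S phase, was 2.05-fold lower on L38482_g_at. The probe sets of Cdc34 ran in opposite directions between dTGR and SD control. L38482_at read 115 in dTGR against 211 in SD control, and L38482_g_at read 1125 against 891. Replication genes had 1 of 20 higher and 2 lower in terminal heart failure against dTGR, and CDKs 0 of 6 higher and 1 lower, beside 8.29% and 11.3%. The lower replication genes were Rfc1, another part of the clamp loader (2.72-fold), and Mcm6, a subunit of the replicative helicase (2.06-fold). The terminal value of Rfc1, 28.1, was close to the floor. Losartan-treated dTGR against dTGR, with a background of 5.79% higher and 10.4% lower, had 2 of 11 mitosis list probe sets lower and 0 higher. These were Cdc34 (2.42-fold on L38482_g_at) and Cdc37 (2.03-fold), a co-chaperone of Hsp90 for kinases, and neither acts in mitosis itself. It had 1 of 6 CDK probe sets higher, Cdk1, the partner of cyclin B1 (2.43-fold, 89.2 against 36.7), with 2 lower, of which Cdc25b, a phosphatase that activates Cdk1, was 2.27-fold lower. Replication had 1 of 20 higher and 2 lower in that comparison, Rfc1 (2.55-fold, with 30.0 after losartan, close to the floor) and Rfc4 (2.09-fold). Against SD control, losartan-treated dTGR had 2 of 20 replication probe sets lower and 0 higher, and 1 of 5 CDK probe sets lower. It had 1 of 9 mitosis probe sets higher, Foxm1 (2.69-fold). Over all probe sets 2.76% were higher and 6.11% lower. Terminal heart failure against losartan-treated dTGR had 2 of 20 replication and 2 of 9 mitosis probe sets lower, and 0 higher in either list. It had 1 of 4 CDK probe sets lower, beside 8.95% higher and 6.79% lower over all probe sets. Pttg1, a regulator of sister chromatid separation, was 2.44-fold lower.

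The p53 and growth arrest list held 15 probe sets of 6 genes. In terminal heart failure against SD control, 3 of 14 were higher and 1 lower (median 0.51), beside 7.38% and 8.53% over all probe sets (median -0.11). Gadd45a, a stress protein that binds Pcna and p21, was 2.77-fold higher on rc_AI070295_g_at, and Mdm2, the ubiquitin ligase of p53, was 2.13-fold higher on rc_AI639488_at. The lower call was Gas6, a secreted ligand first found in growth-arrested cells, at 169.8 against 363, 2.14-fold. In dTGR against SD control 1 of 13 was higher and 0 lower (median 0.50), beside 7.98% and 6.14% (median 0.05). The call was Gadd45a on rc_AI070295_at, at 173 against 42.4, 4.08-fold. Terminal heart failure against dTGR had 1 of 14 higher and 2 lower, beside 8.29% and 11.3%. The higher was the antiproliferative gene Btg1 (2.08-fold), and the lower were Gas6 (3.01-fold) and Gadd45a on rc_AI070295_at (2.35-fold). Gadd45a was higher in terminal heart failure on rc_AI070295_g_at (186 against 124) and L32591mRNA_g_at (830 against 722). Its direction in that comparison was not settled. Losartan-treated dTGR had 0 of 13 in either direction against dTGR, beside 5.79% higher and 10.4% lower. Against SD control it had 2 of 13 higher and 0 lower, beside 2.76% and 6.11%. Both calls were on probe sets of Gadd45a (2.52-fold and 2.21-fold). The probe sets of Mdm2 ran in opposite directions in that comparison, both short of 2-fold. AA108308_s_at read 122 after losartan against 188 in SD control, and rc_AI639488_at read 105 against 81.3. The last comparison, terminal heart failure against losartan-treated dTGR, had 0 of 14 in either direction, beside 8.95% and 6.79% (median 0.33 against -0.07). Short of the threshold, Gadd45a on L32591mRNA_g_at was 1.87-fold and Mdm2 on rc_AI639488_at 1.64-fold higher, and Gas6 was 1.998-fold lower. Both Cdkn1a probe sets were called higher in that comparison. Other CDK inhibitors (2 probe sets), Rb and E2F genes (4 probe sets) and further cyclins (1 probe set, below the floor on every array) had 0 calls in all 6 comparisons.

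Markers of the other cells of the ventricle differed between the arrays too. The summed intensity of 14 macrophage probe sets was 6010 in SD control, 6039 in dTGR, 5676 after losartan and 6827 in terminal heart failure. There 4 of 11 tested were higher and 4 lower than in SD control, beside 7.38% and 8.53% over all probe sets. Terminal heart failure against losartan-treated dTGR had 5 of 11 higher and 1 lower (median 0.76), beside 8.95% and 6.79% over all probe sets (median -0.07). The complement gene C1qb was 4.44-fold, the lectin Lgals3 3.89-fold and lysozyme Lyz2 3.10-fold higher. Cd74 was lower on X13044_g_at (666 against 1986) and on X14254cds_at (72.0 against 134). Both Cdkn1a probe sets were higher in that comparison too. Fibroblast markers (23 probe sets, 16 to 19 above the floor) summed to 18513 to 23113. Terminal heart failure against SD control had 0 of 18 higher and 7 lower, beside 7.38% and 8.53%. Endothelial markers (5 probe sets, 3 to 4 above the floor) summed to 385 to 495, but single genes differed in opposite directions. In terminal heart failure against losartan-treated dTGR, the receptor Kdr was 4.51-fold lower and the receptor Flt1 3.85-fold higher, and Flt1 was 3.85-fold lower after losartan than in dTGR. Atrial markers (7 probe sets, 4 to 5 above the floor) summed to 461 to 798. Terminal heart failure against losartan-treated dTGR had 3 of 5 higher and 0 lower (median 1.05), beside 8.95% and 6.79%. Erythroid markers (2 probe sets, both above the floor throughout) summed to 9405 to 15931. Alas2, the erythroid enzyme of haem synthesis, read 525 in SD control, 604 in dTGR, 252 after losartan and 856 in terminal heart failure. Alas2 was lowest after losartan, as Ccng1 was. The other erythroid probe set, of Hbb, was lowest in SD control (8879), with 15327 in dTGR, 11007 after losartan and 11474 in terminal heart failure. Lymphocyte markers (11 probe sets, 4 to 7 above the floor) summed to 431 to 624, and smooth muscle markers (10 probe sets, 7 to 8 above the floor) to 5589 to 10254. Cardiomyocyte markers summed to 248545 in dTGR against 116159 to 163926 on the other arrays. The part of these cells in the values of the 10 genes was not tested.

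The genes with the most similar pattern were sought for the brightest probe set of each member that was above the floor on all arrays and spanned 2-fold. Likeness was the Euclidean distance of mean-centred log2 values over the 4 arrays, among 3458 to 3461 probe sets. With 4 arrays, many genes share an order, and the distances are descriptions. Nearest to Ccnd1 (D14014_at) were Dtd2 (0.10) and Col4a5 (0.12), nearest to Ccnd2 (rc_AA899106_at) were Cox5a (0.26) and Ybx1 (0.31), and nearest to Ccnb1 were Dnttip1 (0.16) and Cyp1a2 (0.19). Ccng1 had Slc4a1 (0.12) and Dmbt1 (0.18), and Pcna (M24604_at) had Mycbp2 (0.21) and Ubqln1 (0.22). Slc4a1, the band 3 anion exchanger of red cells, was picked by its likeness to Ccng1, so their shared low losartan value follows from that choice. Slc4a1 read 73.1 after losartan against 143 in SD control, 163 in dTGR and 177 in terminal heart failure. The erythroid marker Hbb was not lowest after losartan.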

How the data were processed

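Left ventricular RNA of 4 samples was measured on Affymetrix rat arrays, per the file headers. Linear intensities, 1 for each probe set of an array, were deposited by the authors; which software computed them is not given in the sources used here. Of 15281 deposited values from 1 to under 32, 13625 had decimals of the kind a spreadsheet gives when it rewrites numbers as day and month, so low values are uncertain by under 1 unit. Instrument records, per the file headers, gave chip lot, run day and fluidics protocol. Probe sets were named through GEO's platform annotation, and 6985 of 7006 with 1 symbol matched the RefSeq rat gene table by gene ID. Arrays were scaled to the mean of their trimmed means (2% left out at each end), values under the 40th percentile (26.0) were set to it, and log2 was taken. Each comparison is a difference of 2 arrays, with no test. All 22 member probe sets are named; up to 3 probe sets of a pathway list per comparison could be. The members, lists and comparisons were chosen with earlier results of these data known. Alternatives were median scaling, quantile normalization and cyclic loess (limma 3.58.1, R 4.3.3), floors at the 25th or 60th percentile, no floor and, added after seeing the data, low values read with 1 decimal. Calculations used Python 3.11.15 and were tested on simulated data. Precision is limited by the number of arrays.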

Additional observations from a re-analysis of the deposited data

How the results depend on the processing

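Over 7 alternative settings, 758 differences of single member probe sets were recomputed: 725 moved by less than the SD between probe sets of one gene, 33 moved by more and 0 of those at 2-fold or more changed sign. Of 285 that had reached 2-fold, 270 still did and 15 did not. These totals count the same values again in each setting, at most 110 differences with 41 calls. The floor at the 60th percentile alone ended 9 of 39 calls, and scaling to the same median ended 4 of 41. Another 15 newly reached 2-fold, among them Cdkn1a U24174_at in terminal heart failure against SD control. Counts of member probe sets were the less stable values. With scaling to the same median, 1 was higher in dTGR than in SD control, and terminal heart failure had 5 higher and 2 lower than dTGR. With the floor at the 60th percentile, 2 were lower in dTGR than in SD control, 1 was higher in terminal heart failure than in SD control, 2 were lower after losartan than in dTGR, 2 were lower after losartan than in SD control, and 3 were higher in terminal heart failure than after losartan. With no floor, 4 were higher in terminal heart failure than in SD control, 5 were higher in terminal heart failure than in dTGR, and 2 were higher after losartan than in SD control. The member median of dTGR against SD control changed sign under each of the 3 other normalizations, from 0.13 to between -0.11 and just under 0. The member median of terminal heart failure against dTGR was 0.13 with the floor at the 25th percentile and 0.15 with no floor, against -0.49. The moves with the floor come with fewer or more probe sets and with looser or tighter bounds. The cause of the others was not tested. The higher of the alternative floors also ended all 4 calls of the Cdkn1a probe set L41275cds_s_at. No paired analysis was possible because each group has 1 array. Signal near the floor limits Cdkn1a, Ccne1 and the dim probe sets of Ccnd3 most.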
